A study of Mus musculus with 8 samples.

Results

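The genes described here encode the contractile, calcium-handling, energy and regulatory proteins of heart and skeletal muscle, and they were read in total lung RNA. They are 47 genes named by symbol, and each was represented by the brightest Affymetrix probe set annotated to that symbol alone. They were set against 12856 genes tested in all, of which 40 were members. The other 7 (Nppb, Nkx2-5, Myl1, Mylpf, Tnnt3, Tnnc2 and Ckmt2) lay below a limit on dim probe sets, a mean log2 intensity of 6.51, and were fitted only without that limit. The members fell into 4 genes typical of the atria, 4 of the ventricles, 16 of both heart chambers, 10 of skeletal muscle and 13 shared by heart and skeletal muscle.

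The case group held pups D04, D34, D48 and D52 and the control group held pups D02, D40, D50 and D58, all of the FVB/N strain, with 1 array per pup and no age in the labels. Every pup carries the same genotype field, an inducible FGF18 transgene made of SP-C-rtTA and a tet operator cassette. The surfactant protein C promoter limits the activator to distal lung epithelium, and the series' design text speaks of single and double transgenic pups paired within 4 litters, which the titles do not tie together. No source used here says how heart, diaphragm or chest wall was trimmed from the lungs. Array medians lay between 7.02 and 7.12 log2, and precision is set by how few pups there were. Xist and Eif2s3y gave a female reading in D04, D34 and control D02 and a male one elsewhere.

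In mice, the myocardium of the left atrium continues as a sleeve of cardiac muscle along the pulmonary veins into the lung, so lung RNA holds transcripts of atrial muscle. Atrial and ventricular cells share most of their thick and thin filament proteins but use different myosin light chains, Myl7 and Myl4 in the atria and Myl2 and Myl3 in the ventricles. Fast skeletal muscle of the chest wall and diaphragm uses its own set, among them Myl1, Mylpf, Tnnt3, Tnni2 and Tnnc2.

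Fgf18 was read first, since the genotype field of every pup names its inducible transgene. Its log2 intensity was 10.82, 12.09 and 9.82 in cases D04, D34 and D48, against 7.05, 7.76, 7.11 and 7.07 for controls D02, D40, D50 and D58. The library labelled case D52 read 7.66, within the control range, which goes against its label. Differences and group medians are therefore given for all pups and, where it moves them most, without that library. Group medians are also given without D34, the pup with the highest Fgf18, and differences without it for some genes.

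Upstream sequence is shown for 4 members that stand for the patterns described below, Myl7 for atrial muscle, Actc1 for heart muscle as a whole, Acta1 for the skeletal actin and Mylpf for fast skeletal muscle. Each run is the 250 bases before the annotated start, 5′ to 3′ on the gene's strand, from RefSeq on GRCm38.p6. They lie at chr11:5898783-5899032 (minus strand), chr2:114052876-114053125 (minus strand), chr8:123894776-123895025 (minus strand) and chr7:127211358-127211607 (plus strand). Capitals mark a CArG box, the site of serum response factor, in Myl7 and Actc1, the E-box CAGCTG, a site of muscle bHLH factors, in Mylpf, and both in Acta1.
Myl7: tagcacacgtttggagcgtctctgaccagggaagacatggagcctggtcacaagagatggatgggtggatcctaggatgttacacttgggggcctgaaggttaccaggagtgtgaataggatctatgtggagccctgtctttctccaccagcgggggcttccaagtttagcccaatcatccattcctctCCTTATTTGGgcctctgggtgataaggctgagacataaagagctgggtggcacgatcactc
Actc1: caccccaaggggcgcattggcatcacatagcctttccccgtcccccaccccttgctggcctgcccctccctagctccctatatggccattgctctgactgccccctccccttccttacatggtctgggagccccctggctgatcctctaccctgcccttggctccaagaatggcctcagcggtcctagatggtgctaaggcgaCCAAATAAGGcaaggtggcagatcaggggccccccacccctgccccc
Acta1: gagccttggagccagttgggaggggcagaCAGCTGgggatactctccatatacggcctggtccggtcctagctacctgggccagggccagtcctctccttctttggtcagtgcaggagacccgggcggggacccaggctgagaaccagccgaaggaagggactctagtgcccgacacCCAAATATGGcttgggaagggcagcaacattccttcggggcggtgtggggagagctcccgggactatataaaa
Mylpf: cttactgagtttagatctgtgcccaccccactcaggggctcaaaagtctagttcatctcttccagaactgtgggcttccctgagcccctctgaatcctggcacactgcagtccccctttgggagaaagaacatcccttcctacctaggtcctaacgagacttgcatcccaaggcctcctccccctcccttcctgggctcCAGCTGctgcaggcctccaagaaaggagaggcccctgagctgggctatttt

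The promoter table held 39 of the 47 members. A strict CArG box, that is CC, 6 bases of A or T and GG on either strand, stood in that window in 5 of 39 members (12.8%), among them Myl7, Actc1, Acta1, Myl3 and Ldb3. That was so for 1.62% of all 27025 genes there. The E-box CAGCTG, which reads alike on both strands, stood in 16 of 39 members (41.0%), against 14.7% of all genes, and in 6 of 8 skeletal members, against 3 of 15 members of both heart chambers. A MEF2 site was found in 3 of 39 (Ttn, Mybpc3 and Myoz2), against 0.592% of all genes. The GATA site AGATAA was found in 17.9%, against 11.4%, the T-box site AGGTGT in 17.9%, against 13.6%, and the NKX site AAGTG in 41.0%, against 44.3%, each searched on both strands. These are matches of letters in a short window and were not tested as sites.

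**Figure D1:**
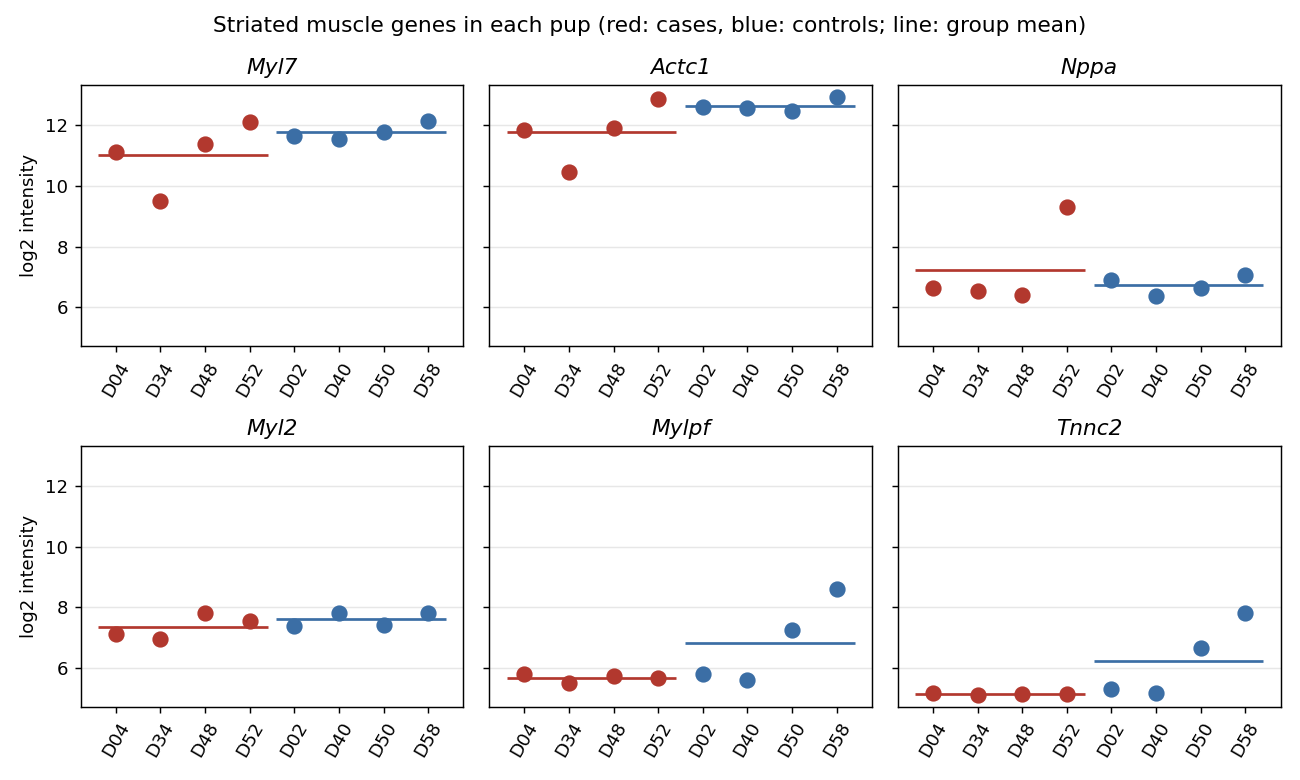
Log2 intensity of 6 members in each pup, with cases in red on the left, controls in blue on the right and a line at each group mean. Myl7 and Actc1 are lowest in D34 and high in the library labelled case D52 and in D58, Nppa stands at 9.29 in the library labelled case D52 alone, and Mylpf and Tnnc2 stand up in controls D50 and D58.

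The first question was whether atrial muscle transcripts differed between case and control lungs. For Myl7, Myl4 and Sln, cases D04, D34 and D48 lay below the control mean, with D34 far the lowest, while the library labelled case D52 stood near the highest control. Nppa had another pattern. Myl7, the atrial regulatory light chain of myosin, read 11.10, 9.49 and 11.36 in cases D04, D34 and D48, with 12.10 in the library labelled case D52, against 11.64, 11.53, 11.76 and 12.12 for controls D02, D40, D50 and D58. D34 differed from the control mean by -2.28 log2, a level 4.84-fold lower, and the groups overlapped only through the library labelled case D52. Over all 8 pups the Myl7 difference was -0.75 log2 (SE 0.45, 95% interval -1.74 to 0.25, limma adjusted p = 0.736 over all genes). With that library left out it was -1.11 (interval -1.99 to -0.24, limma adjusted p = 0.284), and with D34 left out instead it was -0.24 (limma adjusted p = 0.92). The median of the 4 atrial members was -0.63 over all pups, -0.99 without the library labelled case D52 and -0.21 without D34.

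Myl4, the atrial essential light chain, read 10.85, 9.34, 11.02 and 11.79 in cases D04, D34, D48 and the library labelled case D52, against 11.38, 11.29, 11.47 and 11.88 for controls D02, D40, D50 and D58. Again only the library labelled case D52 overlapped the controls, with a difference of -0.76 over all pups and -1.10 without the library labelled case D52 (limma adjusted p = 0.736 and 0.251). Sarcolipin (Sln), the small inhibitor of the calcium pump of atrial muscle, read 7.96, 7.12, 8.23 and 9.18 in the same 4 cases, against 8.58, 8.17, 8.70 and 9.11 in controls. D48 lay just above control D40 for Sln, and the difference was -0.52 (adjusted p = 0.751), or -0.87 without the library labelled case D52 (limma adjusted p = 0.243). For the single pair that the authors set together, their deposited table gives a log2 ratio of D04 over D02 of -0.54 for Myl7 and -0.62 for Sln.

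Nppa, which encodes the atrial natriuretic peptide stored in granules of atrial muscle cells, did not follow its group. It read 6.64, 6.54 and 6.40 in cases D04, D34 and D48, with 9.29 in the library labelled case D52, against 6.91, 6.39, 6.62 and 7.07 for controls D02, D40, D50 and D58. The library labelled case D52 was thus 2.54 log2 above the control mean for Nppa, while for Myl7 it was 0.34 above. The Nppa difference was 0.47 over all 8 pups (interval -0.77 to 1.71, limma adjusted p = 0.833) and -0.22 without that library (adjusted p = 0.566), so its direction rests on 1 array. Nppb, the second natriuretic peptide gene, lay below the limit and read 5.78, 5.81, 5.56 and 6.46 in the 4 cases, the last the library labelled case D52, against 5.84 to 6.10 in controls. Both peptide genes were highest in that library.

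The genes of both heart chambers behaved like the atrial light chains. Of the 15 tested, 15 had a difference below 0, D34 was the lowest of the 8 pups in 14, and cases D04, D34 and D48 lay below every control in 14. Over all genes tested, 55% had a difference below 0, D34 was lowest in 30.2%, and those 3 cases lay below every control in 7.97%. Their median difference was -0.67 over all pups and -1.0 without the library labelled case D52, where the median over all 12856 genes was -0.01 and -0.02. Without D34 the group's median was -0.31. None passed over all genes in either fit.

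Among the thin filament genes, cardiac actin (Actc1) read 11.84, 10.44, 11.91 and 12.86 in cases D04, D34, D48 and the library labelled case D52, against 12.58, 12.54, 12.47 and 12.92 for controls D02, D40, D50 and D58. Cases D04, D34 and D48 lay below every control, and the library labelled case D52 lay within the control range. The difference was -0.87 (interval -1.76 to 0.03, limma adjusted p = 0.736) and -1.23 without that library (interval -1.95 to -0.51, limma adjusted p = 0.187), and -0.42 without D34. Cardiac troponin I (Tnni3), the inhibitory subunit that switches the filament off, read 8.79, 7.20, 9.15 and 9.89 in the 4 cases, against 9.38, 9.45, 9.59 and 9.95 in controls. Cardiac troponin T (Tnnt2), which ties the troponin complex to tropomyosin, read 10.55, 9.13, 10.69 and 11.27, against 10.99, 11.39, 11.08 and 11.57. D34 lay 5.26-fold below the control mean for Tnni3 and 4.38-fold for Tnnt2. Troponin C of heart and slow muscle (Tnnc1), the calcium sensor of the complex, differed by -0.86, and by -1.26 without the library labelled case D52. Over all pups the differences of Tnni3 and Tnnt2 were -0.83 and -0.85, close to that of Tnnc1.

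In the thick filament and the Z disc the same pups were low. Myh6, the alpha myosin heavy chain, read 10.88, 9.92, 11.23 and 11.98 in cases D04, D34, D48 and the library labelled case D52, against 11.47, 11.51 and 11.71 in controls D02, D40 and D50, with D58 the highest of all pups. Its difference was -0.67, or -1.0 without that library (limma adjusted p = 0.736 and 0.194), and -0.31 without D34. A second, dimmer Myh6 probe set gave -0.96. Myosin binding protein C (Mybpc3), which bridges the filaments, differed by -0.27, and the Z disc proteins Csrp3 and Myoz2 by -0.58 and -0.75. Without the library labelled case D52 the last 2 stood at -0.95 and -1.13. Ankrd1, a stress-responsive ankyrin repeat protein of the sarcomere, differed by -0.43 (-0.90 without the library labelled case D52) and had the widest spread among controls of the tested members, 8.85 to 10.12, with 10.40 in the library labelled case D52. Hspb7, a small heat shock protein of heart muscle, differed by -0.73, and its 3 probe sets ranged from -0.89 to -0.73.

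Of the calcium-handling genes, Casq2, Ryr2 and Pln differed by -0.56 to -0.26, while the pump Atp2a2, described with the shared genes, differed by 0.16. The calcium store protein Casq2 read 8.0, 7.47, 8.06 and 8.89 in cases D04, D34, D48 and the library labelled case D52, against 8.52, 8.56, 8.67 and 8.88 in controls. Its difference was -0.56, and -0.82 without that library, with the smallest adjusted p of any member in that fit (limma adjusted p = 0.101, from 0.0838 to 0.92 over all alternatives). The release channel Ryr2 differed by -0.39, and by -0.65 without the library labelled case D52. Phospholamban (Pln), the inhibitor of the calcium pump Atp2a2, read 6.99, 6.56, 6.84 and 7.34 in the 4 cases, against 7.18, 7.09, 7.19 and 7.31 in controls, a difference of -0.26, or -0.39 without the library labelled case D52. In D04, D34 and D48 Casq2, Ryr2 and the brightest Pln probe set each lay below every control, which held for 7.97% of all genes tested. Dimmer Pln probe sets above the limit differed by -0.17 and -0.13. In the first of them D04, at 6.86, lay above control D40, at 6.83.

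Of the heart transcription factors, Tbx20, a T-box factor of cardiac muscle, had the largest difference. It read 6.83, 5.53, 6.94 and 7.80 in cases D04, D34, D48 and the library labelled case D52, against 7.38, 7.57, 7.4 and 7.80 in controls, which gave -0.77, or -1.11 without that library (limma adjusted p = 0.736 and 0.193). Nkx2-5, a homeobox factor needed for heart formation, lay below the limit at 6.05, 5.95, 6.02 and 6.49, against 6.27, 6.15, 6.43 and 6.37. Gata4, a zinc finger factor, stayed within 6.58 to 6.83 on all 8 arrays, with a difference of -0.10 (interval -0.25 to 0.05). Cases D04, D34 and D48 lay below every control for Tbx20, Nkx2-5 and Gata4, which held for 7.97% of all genes tested. The array medians of these cases, 7.02 to 7.05, also lay below those of controls, 7.06 to 7.12. With quantile normalization the Gata4 difference was -0.03 (limma adjusted p = 0.924). A second Gata4 probe set, below the limit, gave 0.10.

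Ventricular genes showed smaller differences, and the pups' order varied between them. Myl2, the ventricular regulatory light chain, read 7.11, 6.97, 7.82 and 7.57 in cases D04, D34, D48 and the library labelled case D52, against 7.39, 7.82, 7.41 and 7.81 in controls, so D48 stood with the highest controls. Its difference was -0.24 (interval -0.66 to 0.18, limma adjusted p = 0.775), and -0.30 without the library labelled case D52. Myl3, the essential light chain of ventricle and slow skeletal muscle, read 8.11, 7.97, 8.04 and 8.34 in the 4 cases, against 8.17, 8.43, 8.30 and 8.21 in controls, a difference of -0.16. For Myl3, and for Nppb below the limit, cases D04, D34 and D48 lay below every control, which held for 7.97% of all genes tested. D34 was the lowest pup in 2 of the 3 ventricular members tested, against 30.2% of all genes. The 2 dimmer Myl3 probe sets gave -0.27 and -0.44. Myh7, the beta myosin heavy chain, lay between 8.76 and 9.11 on all arrays, and its difference of 0.04 turned negative under other settings. Probe sets annotated to both Myh6 and Myh7 were left out. The median difference of the 3 ventricular members tested was -0.16, -0.24 without the library labelled case D52 and -0.11 without D34. Whether atrial and ventricular members differ from each other was not tested.

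**Figure D2:**
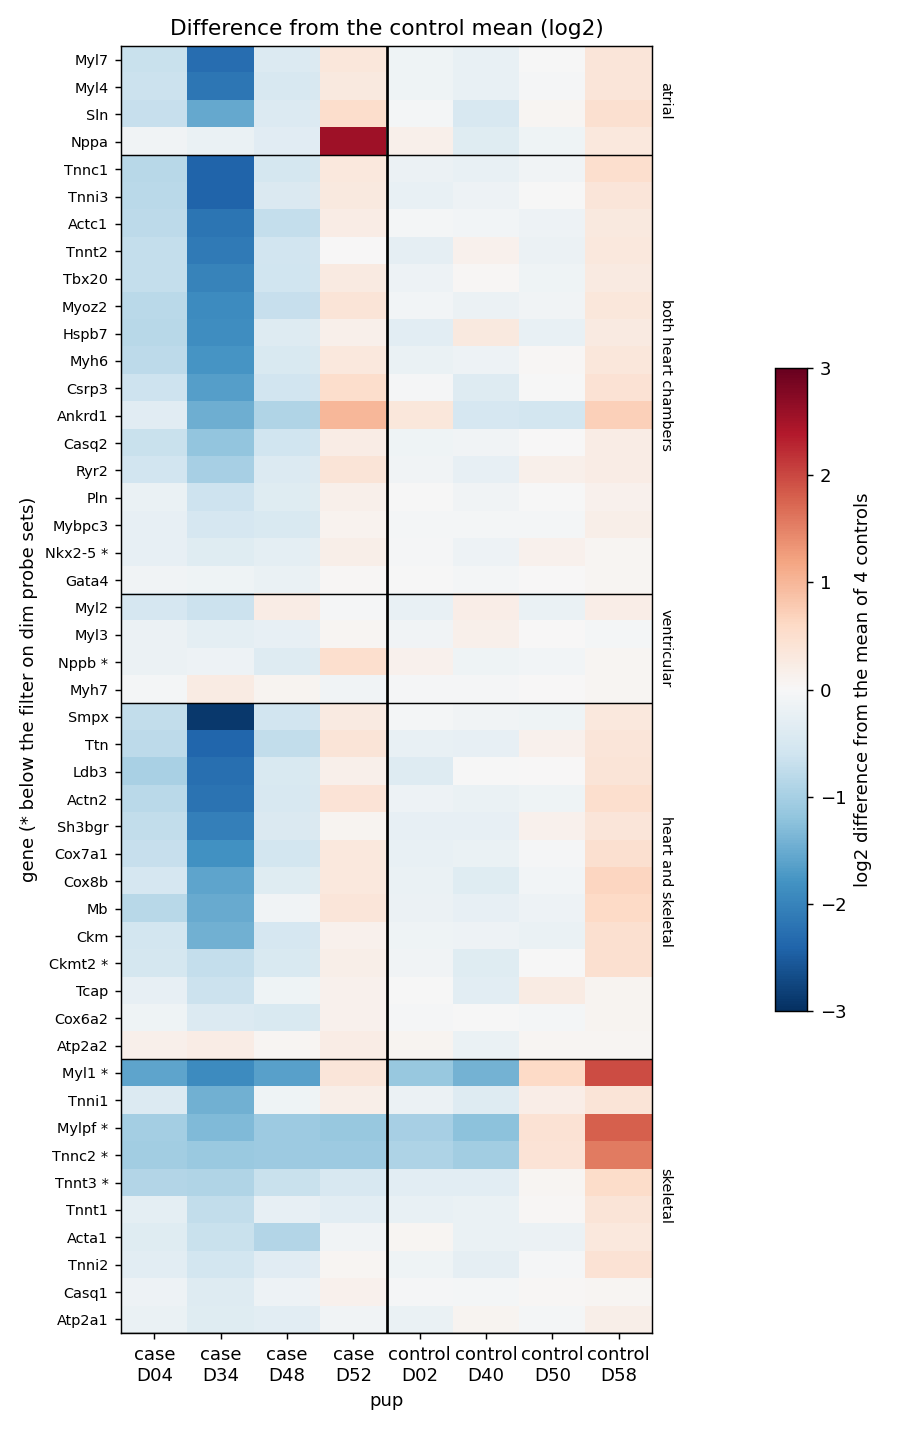
Log2 difference of each of the 47 members from the mean of the 4 controls, with pups in columns (cases left, controls right) and genes in rows by group. The scale ends at 3, and the column labelled case D52 is the library whose Fgf18 goes against its label. D34 is the darkest column of the heart groups, and Mylpf, Tnnc2 and Myl1 are high in D58.

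Most genes shared by heart and skeletal muscle followed the heart pattern. Of the 12 tested, 11 had a difference below 0, with a median of -0.64, of -0.92 without the library labelled case D52 and of -0.30 without D34. In 10 of the 12 the cases stood with D34 lowest, then D04, then D48, then the library labelled case D52. Titin (Ttn), the spring of the sarcomere, read 8.63, 7.04, 8.70 and 9.80 in cases D04, D34, D48 and the library labelled case D52, against 9.21, 9.17, 9.54 and 9.78 in controls. It differed by -0.88, by -1.30 without the library labelled case D52 and by -0.38 without D34. Its second probe set gave -0.89 over all pups. Smpx, a small muscle protein, showed the largest gap of any member, 7.45-fold between D34 and the control mean, and a difference of -0.98, or -1.40 without the library labelled case D52 and -0.34 without D34. The Z disc genes Ldb3 and Actn2 differed by -0.89 and -0.77, and Sh3bgr by -0.78, while the titin cap Tcap differed by -0.22. Without the library labelled case D52 Ldb3 and Actn2 differed by -1.23 and -1.17, Sh3bgr by -1.07 and Tcap by -0.34. A second Ldb3 probe set above the limit differed by only -0.20, or by -0.30 without that library.

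Energy genes of muscle read lowest in D34 as well, except Cox6a2, whose brightest probe set was lowest in D48. A second, dimmer Cox6a2 probe set was lowest in D34, at 6.39. It differed by -0.50, or by -0.83 without the library labelled case D52. Myoglobin (Mb), which stores oxygen, read 7.72, 7.03, 8.45 and 8.91 in cases D04, D34, D48 and the library labelled case D52, against 8.38, 8.30, 8.39 and 9.15 in controls, and D48 lay among the controls. Cox8b, a muscle isoform of a cytochrome oxidase subunit, read 7.79, 6.70, 7.92 and 8.59, against 8.09, 7.93, 8.21 and 8.92. Differences were -0.53 for Mb, -0.54 for Cox8b, -0.69 for Cox7a1, -0.21 for Cox6a2, -0.59 for the cytosolic creatine kinase Ckm and -0.38 for the mitochondrial creatine kinase Ckmt2, which lay below the limit. Without the library labelled case D52 Mb and Cox8b both stood at -0.82, Cox7a1 at -1.02, Cox6a2 at -0.33, Ckm at -0.83 and Ckmt2 at -0.56. Atp2a2, the calcium pump of heart and slow muscle that most other cells also use, was the exception. Its brightest probe set read 0.16 higher in cases (interval -0.01 to 0.34), while the next brightest differed by -0.23 and -0.34. It was the only one of the 9 members with over 1 probe set above the limit whose probe sets disagreed in sign.

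The second question was whether skeletal muscle genes differed. Among the tested skeletal members the differences were smaller than in the atrial, both-chamber and shared groups, with a median of -0.34, of -0.41 without the library labelled case D52 and of -0.20 without D34, and 6 of 6 were below 0. Acta1, the skeletal actin that neonatal heart also makes, read 9.26, 8.95, 8.75 and 9.52 in cases D04, D34, D48 and the library labelled case D52, against 9.68, 9.42, 9.44 and 9.93 in controls. For Acta1 the lowest pup was D48, and the difference was -0.50 (interval -0.88 to -0.11, limma adjusted p = 0.736), or -0.63 without that library (limma adjusted p = 0.173). Atp2a1, the calcium pump of fast fibres, read 7.20, 7.04, 7.09 and 7.30, against 7.21, 7.48, 7.33 and 7.58, a difference of -0.25. Slow troponin T (Tnnt1) was the 1 tested member whose cases all lay below every control, at 7.63 to 8.11, against 8.15 to 8.76, which held for 2.57% of all genes tested. No tested member had every case above every control, which held for 1.38%. Slow troponin I (Tnni1) differed by -0.45, fast troponin I (Tnni2) by -0.28 and the calcium store protein Casq1 by -0.13, which was -0.23 without the library labelled case D52. Of the tested skeletal members Tnni1 lay furthest down in D34, at -1.45 log2 from the control mean. Which muscle its signal comes from was not tested.

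The fast skeletal genes below the limit showed a different set of pups. Mylpf, the fast regulatory light chain, read 5.80, 5.51, 5.74 and 5.68 in cases D04, D34, D48 and the library labelled case D52, against 5.82, 5.60, 7.27 and 8.61 for controls D02, D40, D50 and D58. Tnnc2, the fast calcium sensor, read 5.20, 5.12, 5.16 and 5.15 in the same cases, against 5.33, 5.20, 6.66 and 7.80 in controls. For both genes controls D50 and D58 stood far above the other 6 pups. Fast troponin T (Tnnt3) read 5.21, 5.20, 5.42 and 5.61, against 5.79, 5.78, 6.16 and 6.65. The essential light chain Myl1 read 4.42, 4.10, 4.36 and 6.37, the last in the library labelled case D52, against 4.85, 4.59, 6.60 and 7.94. Fitted without the limit, the differences were -1.15 for Mylpf, -1.09 for Tnnc2, -0.74 for Tnnt3 and -1.18 for Myl1 (limma adjusted p from 0.618 to 0.690). Without the library labelled case D52 Mylpf stood at -1.14, Tnnc2 at -1.09, Tnnt3 at -0.82 and Myl1 at -1.70.

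The embryonic and perinatal skeletal myosins, which are no members and lay below the limit, stood up in the same 2 controls. Myh3 read 3.97 to 4.71 in the 4 cases, against 4.28, 3.92, 6.42 and 8.03 in controls. Myh8 read 4.17 to 4.70, against 4.80, 4.65, 6.13 and 7.16. Other skeletal myosins, also below the limit, varied less. Over all 8 pups Myh1 read 5.21 to 5.51, Myh2 5.16 to 5.77 and Myh4 4.40 to 4.75. D58 also stood apart in some brown fat genes. Ucp1, the uncoupling protein of that tissue, lay below the limit. It read 4.46 to 4.91 in cases, against 4.76, 4.74, 4.65 and 7.41 for controls D02, D40, D50 and D58. Fabp4, above the limit, read 9.92 in D58, against 8.11 to 9.27 in cases and 8.66 to 8.80 in the other controls. D58 was not the highest pup for Pparg, Dio2 or Prdm16. The summed intensity of the 8 brown fat genes with a probe set, of which 2 were tested, was 1016 to 1344 in cases and 1133 to 1988 in controls. The part of carried-over tissue in the skeletal values was not tested.

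**Figure D3:**
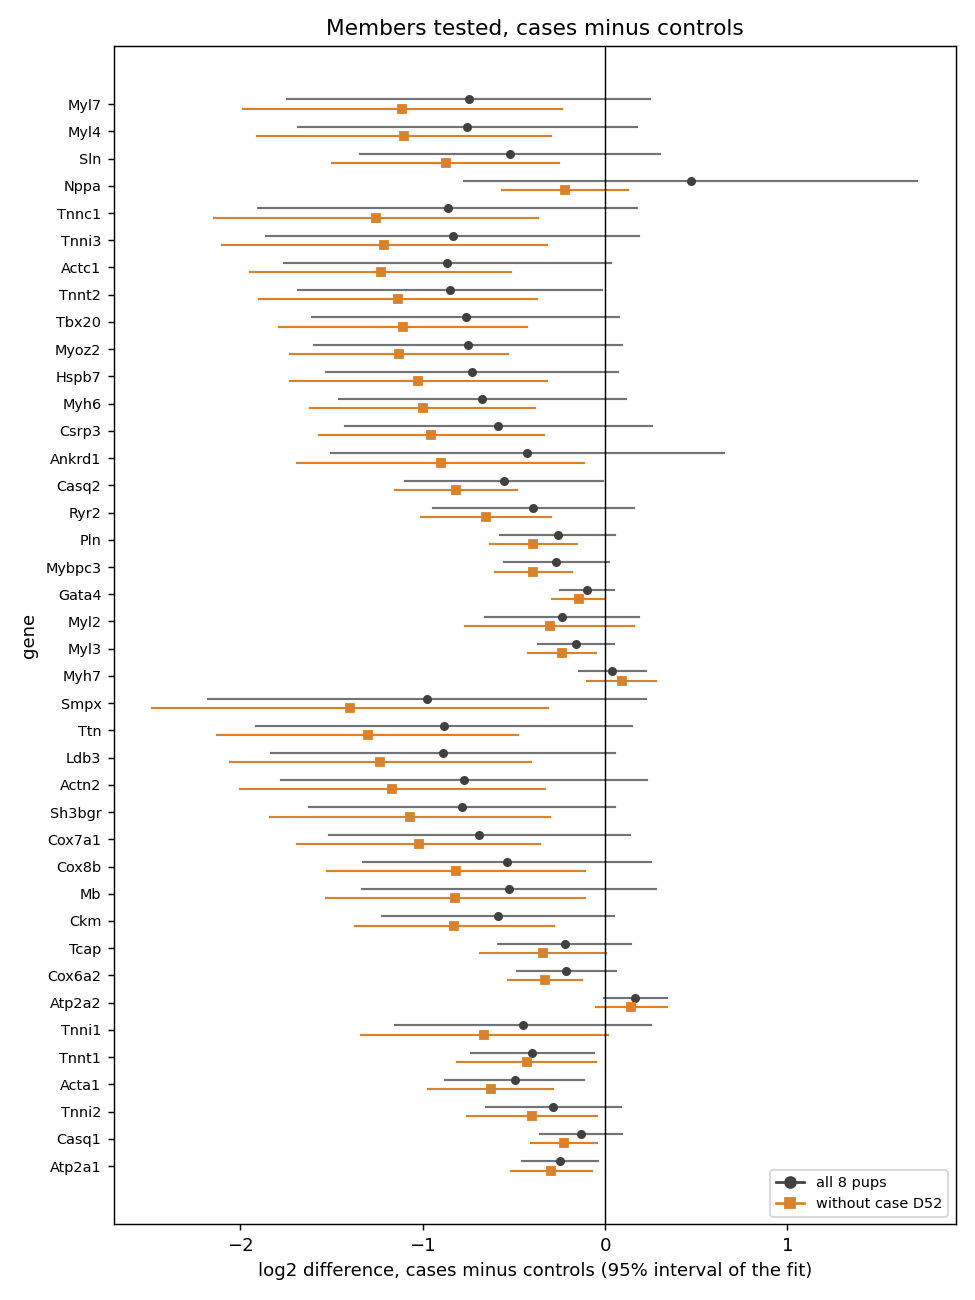
Log2 difference of cases minus controls for the 40 members tested, with its 95% interval from limma, over all 8 pups (circles) and without the library labelled case D52 (squares). Most values lie further left without that library, for Myl7 at -1.11 in place of -0.75, and Nppa crosses 0.

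Over all tested members, 37 of 40 had a difference below 0, with a median of -0.53, where 55% of all genes lay below 0. By limma, 0 had an adjusted p under 0.05 (Benjamini-Hochberg, over all genes), where 0.00778% of all genes were called lower and 0% higher. At an unadjusted p under 0.05, 5 members were lower (Tnnt2, Casq2, Acta1, Tnnt1 and Atp2a1) and 0 higher, a share of 12.5%, where 4.22% of all genes were lower and 2.08% higher. Without the library labelled case D52 the median was -0.82, 38 of 40 were below 0 (54.9% of all genes) and 33 of 40 (82.5%) were lower at that p, where 8.13% of all genes were. None was higher at that p, where 4.57% of all genes were. Again 0 passed after adjustment, where 0.0156% of all genes were called lower and 0.0311% higher. In 31 of 40 the 3 remaining cases lay below every control, which held for 7.97% of all genes, and in 0 they lay above every control, which held for 5.72%. With D34 left out too, a choice made after seeing the data, 26 of 40 were lower at the unadjusted p, where 6.32% of all genes were, and the median was -0.54. With D34 alone left out, 2 of 40 were lower at that p, where 3.14% of all genes were, and the median was -0.23.

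The members shared their order of pups more than genes in general. D34 was the lowest pup in 34 of 40 members, against 30.2% of all genes tested. D58 was the highest in 22 of 40 (13.1% of all genes) and the library labelled case D52 in 13 of 40 (9.23%). In 26 of 40 (65.0%) the cases stood with D34 lowest, then D04, then D48, then the library labelled case D52, which held for 7.30% of all genes. Fgf18 ran the other way, from 12.09 in D34 over 10.82 in D04 and 9.82 in D48 to 7.66 in that library. This order was singled out after the values were seen, and members of 1 tissue are not independent of each other. The median SD between pups was 0.837 in cases and 0.255 in controls for the members, against 0.130 and 0.0977 for all genes tested. In bulk RNA, fewer muscle cells in the sample and less RNA of these genes per cell cannot be told apart.

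The genes listed for striated muscle outside the members showed a smaller median shift. Of 69 listed, 62 had a probe set and 32 were tested, with a median difference of -0.19, and of -0.24 without the library labelled case D52. There were 25 of 32 below 0, where 55% of all genes were, and 0 passed over all genes. At an unadjusted limma p under 0.05, 4 were lower and 1 higher, where 4.22% and 2.08% of all genes were. Without that library 17 were lower and 1 higher, where 8.13% and 4.57% of all genes were. Among the 32 tested, the largest differences were -0.80 for the M band protein Myom1, -0.74 for the muscle phosphoglycerate mutase Pgam2, -0.69 for the muscle ubiquitin ligase Trim63 and -0.63 for sarcalumenin (Srl), a calcium-binding protein of the sarcoplasmic reticulum.

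**Figure D4:**
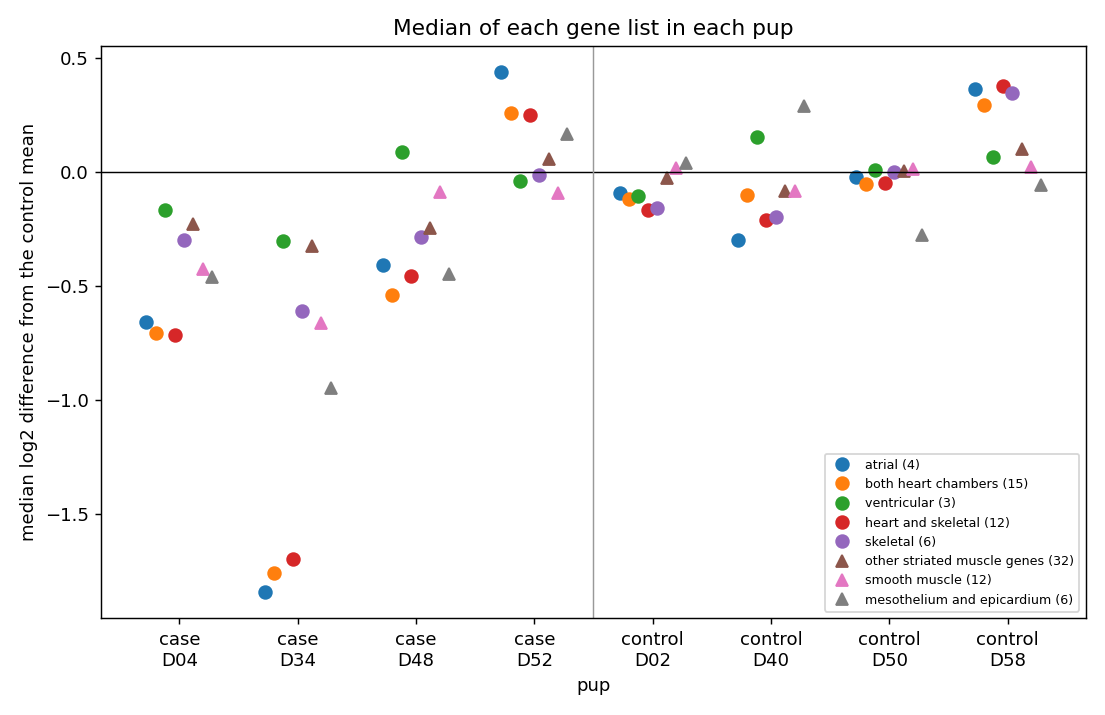
Median log2 difference from the control mean in each pup, for the 5 member groups (circles) and 3 other lists (triangles), with the number of genes tested in brackets; cases stand left of controls. In D34 the atrial, shared and both-chamber medians lie from -1.84 to -1.70, the mesothelium and epicardium list at -0.95 and smooth muscle at -0.66.

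Some markers of other tissues were low in the same pups as the muscle genes. The 12 smooth muscle genes had a median difference of -0.32 (-0.40 without the library labelled case D52), with 10 of 12 below 0 (55% of all genes). At an unadjusted limma p under 0.05, 6 of 12 were lower over all pups, where 4.22% of all genes were. Without that library 8 of 12 were, where 8.13% of all genes were. Their summed intensity was 22729 to 31960 in cases and 31092 to 34510 in controls. Of 7 mesothelium and epicardium genes 6 were tested, and 6 of 6 lay below 0. Their median was -0.40, and -0.62 without the library labelled case D52. At an unadjusted limma p under 0.05, 1 of 6 was lower over all pups and 5 of 6 without that library, where 4.22% and 8.13% of all genes were. The sum was 2412 to 4775 in cases and 3923 to 5085 in controls. D34 was lowest for both sums. The median was -0.12 for 4 cartilage genes tested, with sums of 699 to 1086 in cases and 814 to 955 in controls. It was -0.10 for 3 oesophagus genes (506 to 611 in cases and 524 to 623 in controls) and -0.10 for 2 thymus genes (416 to 473 in cases and 426 to 506 in controls). Liver genes had a median of 0.88 over 5 genes (0.64 without the library labelled case D52), with sums of 1455 to 7203 in cases and 587 to 3848 in controls. Sums of the 47 members were 24805, 14257, 26697 and 43954 in cases D04, D34, D48 and the library labelled case D52, against 33981, 32944, 35186 and 46234 in controls. For Actb, 3′ minus 5′ probe set signal was 0.32 to 0.43 log2 in cases and 0.36 to 0.40 in controls. With sex as a covariate, 3 members were lower at an unadjusted p under 0.05, where 3.28% of all genes were. The median difference of the tested members was then -0.39, against -0.53 without the covariate. The part of the other tissues and of RNA quality in the muscle values was not tested.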

How the data were processed

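Total lung RNA of 8 pups was hybridised to Affymetrix mouse expression arrays. The authors deposited linear intensities for 45101 probe sets, made with the R package affy per the submitters' processing notes. For background correction, summary and normalization, the settings are not stated in those notes or the labels. The log2 ratio of D04 over D02 is also in the authors' deposited table.

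The deposited values were used on the log2 scale without rescaling. Control probe sets (64), those with several symbols (932) and those with none (9160) were left out. Probe sets with a mean below the 40th percentile were left out, and the brightest of each gene was kept. Cases were compared with controls in limma 3.58.1 (lmFit and eBayes, R 4.3.3), with Benjamini-Hochberg adjustment over 12856 genes and a threshold of 0.05. The fit was tested on simulated data. No litter term was used. Nothing in the files calls a probe set detected. Probes of actin and myosin paralogs may bind each other's transcripts.

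Members and lists were chosen with earlier results of these data known, and so was the choice to leave out the library labelled case D52, for its Fgf18. Values in every pup are given for the atrial members and for a fixed set of named members, and the other members by difference or range. The labels do not say that pups came from separate litters within a group. Promoters are RefSeq's on GRCm38.p6.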

Additional observations from a re-analysis of the deposited data

Results flagged for a closer look

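In each group of 4 pups, the highest or lowest log2 intensity of a member was set against the others by Dixon's test, and 10 of 94 groups passed its 95% limit of 0.829. Chance gives about 1 in 20 such groups. Members of 1 tissue read on the same arrays are not independent, so the count does not measure an excess. The same share over all genes tested was not computed. Nppa read 9.29 in the library labelled case D52, with the other cases at 6.40 to 6.64, and Myl1 read 6.37 there, with the others at 4.10 to 4.42. Tnnt1 read 7.63 in case D34, with the others at 8.05 to 8.11. Control D58 stood above the other controls in 6 members. There Tnnc1 read 11.10 (others 10.38 to 10.49), Mybpc3 9.81 (9.55 to 9.57), Ckm 9.89 (9.22 to 9.30), Mb 9.15 (8.30 to 8.39), Actn2 9.37 (8.65 to 8.72) and Smpx 8.89 (8.44 to 8.5). Atp2a2 read 11.36 in control D40, with the other controls at 11.60 to 11.62.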

How the results depend on the processing

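Under 17 alternatives no member passed the adjusted threshold, and the smallest adjusted p of any was 0.0765 (limma, Actc1 without cases D34 and D52). Of 670 member differences 665 kept their sign. Those that turned were Atp2a2 with the mean over its probe sets (-0.0924), Myh7 with array weights (-0.0419) and, over the fits that left out 1 pup, from -0.0258 (without D34) to 0.0907 (without the library labelled case D52), and Nppa, from -0.22 (without that library) to 0.74 (without D48), and -0.23 without both D34 and that library. Members lower at an unadjusted p under 0.05, 5 over all pups, numbered 3 with array medians set equal (2.6% of all genes lower and 5.35% higher, against 4.22% and 2.08% before), 3 with a trended and robust eBayes (3.97% of all genes lower), 3 with sex as a covariate (3.28%) and 31 with array weights (13.6%). Leaving out 1 pup at a time gave 1 (without D58, 2.62% of all genes) to 33 (without the library labelled case D52, 8.13%). It gave 2 of 40 (5%) without D34 (3.14% of all genes) and 2 of 40 without D40 (3.89%). Leaving out D34 and that library, chosen after seeing the data, gave 26 (6.32%). Members higher at that p, 0 over all pups, numbered 1 with array medians set equal (5.35% of all genes) and 1 with the trended eBayes (2.21%). When 1 pup was left out they numbered 1 without D48 (1.76% of all genes) and 0 otherwise. The cause of these shifts was not tested. Median differences kept their direction, and that of the tested members was -0.23 without D34 and -0.39 with sex as a covariate, against -0.53 over all pups. No paired analysis was possible because the labels tie no pups to a litter and the groups share no replicate numbers. The number of arrays, 4 a group, limits the precision, and dim probe sets have no detection call.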

Other observations

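The mean of the 4 atrial members over the 8 arrays was set against every gene tested, as a description. This mean includes Nppa, which stood at 9.29 in the library labelled case D52 alone and had r = 0.717 with it. Myl7 and Myl4 themselves had r = 0.935 with the mean, at ranks 55 and 57. All genes were read on the same 8 arrays, so these correlations carry no p. Of the 12856 genes 1.35% had a Pearson r over 0.9, and of the 36 members tested outside the atrial group 20 did (55.6%), with Csrp3 at 0.980 and Casq1 at 0.972. The 8 genes outside the list that came closest to this mean, Nppa included, were Endod1, Sorbs2, Pinx1, Bag2, AW112010, Arhgef26, Afm and Synpo2l, with r from 0.973 to 0.965. Sorbs2, an adaptor protein of the Z disc, read 7.49, 6.45, 7.73 and 8.66 in cases D04, D34, D48 and the library labelled case D52, against 8.09, 7.97, 8.10 and 8.61 in controls. Synpo2l, a protein of the heart and skeletal Z disc, read 6.93, 5.75, 7.02 and 8.13 in the same cases, against 7.41, 6.83, 7.41 and 8.21 in controls. The other 6 varied less, with an SD over arrays of 0.0936 to 0.404.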
